A study of Homo sapiens with 16 samples.

Results

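Protein-coding promoters at the annotated start were examined in ATAC-seq libraries of Cal33 and SAS. These promoters are the peaks that the deposited annotation classes as promoter and as protein-coding, and whose centre lies within 1000 bp of the nearest listed transcription start. The rule kept 8181 of 164980 peaks (4.96%), annotated to 7898 genes, of which 7626 had 1 such peak. Promoter-class peaks numbered 20533 in all and 15129 were protein-coding, so 6948 protein-coding promoter peaks lay beyond 1000 bp and are used below only for comparison.

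Cal33 and SAS are established, HPV-negative lines of head and neck squamous cell carcinoma. Each line was given either siControl or siITGA7, which makes 4 groups of 4 independent biological replicates. siControl is a non-targeting siRNA and siITGA7 targets ITGA7, the gene for the alpha 7 chain of a laminin-binding integrin, so knockdown was transient and no sequence of the gene was altered. All cells, controls included, were transfected, embedded in a laminin-rich matrix 24 h later and taken for nuclei at 48 h. The comparison asks which accessible sites differ after ITGA7 depletion within each line.

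A promoter is the stretch around a transcription start where general factors and RNA polymerase II assemble. ATAC-seq counts insertions of a transposase, which cuts where nucleosomes leave DNA exposed, and the start of an active gene is among the most exposed sites of a genome. Many promoters of constitutive and cell cycle genes lie in CpG islands and carry a CCAAT box, the short motif bound by the factor NF-Y, a short distance before the start. Accessibility is not transcription, and a promoter can be open in a gene that is little transcribed.

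Stretches of 120 bases that end just before the RefSeq start (GRCh38.p14) are given for 8 of these promoters, because members with and without a CCAAT box are compared below. Letters are lower case, written 5′ to 3′ on the gene's strand, with each CCAAT box, or its reverse complement ATTGG, in capitals. Apart from CDK6, they were chosen among the largest called changes at members with non-overlapping groups and a level no lower than the median. Not all of the largest are shown: DET1 and SIVA1, at -0.82 each in Cal33, are left out. The boxes in these stretches therefore give no frequency. DOLPP1, ELK1 and TK1 fell and CYSRT1 rose in Cal33, NEK2 and DPH3 fell and OAZ1 rose in SAS, and CDK6 is the widest member.
DOLPP1: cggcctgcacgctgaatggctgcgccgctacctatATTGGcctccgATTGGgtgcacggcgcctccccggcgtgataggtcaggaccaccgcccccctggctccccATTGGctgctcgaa
ELK1: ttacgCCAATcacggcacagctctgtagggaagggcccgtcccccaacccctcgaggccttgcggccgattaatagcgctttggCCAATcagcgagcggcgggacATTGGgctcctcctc
TK1: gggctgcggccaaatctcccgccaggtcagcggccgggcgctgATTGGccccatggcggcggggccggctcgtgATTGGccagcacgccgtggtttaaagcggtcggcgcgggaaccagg
NEK2: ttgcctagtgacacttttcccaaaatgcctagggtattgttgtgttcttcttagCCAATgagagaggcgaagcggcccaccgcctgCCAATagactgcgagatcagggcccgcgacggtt
OAZ1: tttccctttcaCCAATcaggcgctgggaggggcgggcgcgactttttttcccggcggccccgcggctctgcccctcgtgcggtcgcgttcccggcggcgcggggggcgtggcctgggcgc
DPH3: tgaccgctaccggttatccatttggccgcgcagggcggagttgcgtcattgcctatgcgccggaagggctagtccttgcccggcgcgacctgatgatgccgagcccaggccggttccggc
CYSRT1: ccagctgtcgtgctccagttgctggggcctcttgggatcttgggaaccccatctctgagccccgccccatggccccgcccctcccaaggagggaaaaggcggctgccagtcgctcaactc
CDK6: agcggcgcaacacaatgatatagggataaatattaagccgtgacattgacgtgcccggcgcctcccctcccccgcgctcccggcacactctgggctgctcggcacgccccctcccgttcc
These stretches lie, in GRCh38.p14, at DOLPP1 chr9:129080991-129081110 (plus strand), ELK1 chrX:47650605-47650724 (minus strand), TK1 chr17:78187053-78187172 (minus strand), NEK2 chr1:211675622-211675741 (minus strand), OAZ1 chr19:2269366-2269485 (plus strand), DPH3 chr3:16264944-16265063 (minus strand), CYSRT1 chr9:137225054-137225173 (plus strand) and CDK6 chr7:92833960-92834079 (minus strand). No CCAAT box stands in the stretches of DPH3, CYSRT1 and CDK6, which says only that these letters are not in these windows.

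The members were wide for this peak set. Their width ran from 159 to 5383 bp with quartiles of 878, 1258 and 1686 bp, against a median of 515 bp over all other peaks, 499 bp over peaks outside promoters and 868 bp over protein-coding promoters beyond 1000 bp. The peak centre lay at a median of -49 bp from the nearest listed start, 58.4% of members were centred upstream, and 4976 (60.8%) lay within 250 bp. For 6197 members (75.7%) that nearest start was that of the annotated gene, and for 1984 it was another gene's, as at shared or neighbouring promoters. Where a RefSeq start and its window, from 250 bases before the start to 50 after, could be set in the peak (5610 members), the median window held 27 CpG, against 21 over all 22199 protein-coding windows. A GC box (GGGCGG) stood in 73.2% of these windows against 56.3% of all, and a TATA box in 3.28% against 6.48%.

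Depth differed with treatment and in opposite directions. Total counts in peaks ran from 3980563 to 8367079 in Cal33 siControl and from 8646532 to 13285086 in Cal33 siITGA7, and from 1766033 to 4870187 in SAS siControl and from 758590 to 1867047 in SAS siITGA7. Per the labels, Cal33 siControl replicates 1 and 2 and siITGA7 replicate 4 had 2 sequencing runs each and every other library 1. The filter on low counts left 6944 members (84.9%) for testing in Cal33 and 6367 (77.8%) in SAS, with 6205 in both and 1075 in neither. The members left out were narrow, with a median of 379 bp in Cal33 and 490 bp in SAS. Squamous markers could be checked only in part, because the annotation lists 1 start per gene and TP63, CDH1 and DSP have no promoter-class peak there. The squamous cadherin DSG3 and the plaque protein PKP1 have a member each, at no more than 9.89 and 3.06 CPM (counts scaled to library size) in any library, so squamous identity is not shown by these members. Promoter-class peaks of the squamous keratins KRT17 and KRT14 lie too far from the listed start to be members. KRT17 was at 74.1 to 106 CPM in Cal33 and 35.7 to 58 CPM in SAS, and KRT14 at 15.4 to 22.3 and 18.7 to 31.6 CPM. Such peaks of the squamous markers KLF5 and GRHL2 were at 88.6 to 113 and 13.3 to 25.6 CPM in Cal33. In SAS they were at 44.6 to 62.6 and 14.5 to 24.1 CPM. Such a peak of the fibroblast collagen COL1A1 was at 33.7 to 45 CPM in Cal33 and 17.3 to 35.6 CPM in SAS. Those of PDGFRB, TAGLN, VWF, TIE1 and CSF1R, also markers of other cell types, stayed at or under 5.89 CPM in every library. Those of CDH5 and ITGAM stayed at or under 10.3 and 15 CPM.

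The promoter of ITGA7 itself did not pass the test in either line. Its member (chr12:55715815-55718019, hg38, 2205 bp wide) held 268, 144, 266 and 220 counts in Cal33 siControl replicates 1 to 4 and 450, 295, 346 and 343 in siITGA7. In SAS it held 68, 35, 116 and 96 counts in siControl and 19, 25, 19 and 33 in siITGA7, in libraries of lower depth. The log2 change was -0.12 ± 0.12 (standard error, SE, adjusted p = 0.552) in Cal33 and -0.27 ± 0.18 (adjusted p = 0.395) in SAS, by edgeR's quasi-likelihood test with Benjamini-Hochberg adjustment over all tested peaks. An siRNA acts on the transcript, so this promoter does not check the knockdown.

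The share of all peak counts that fell in the members was lower after siITGA7, clearly in SAS and with overlap in Cal33. In SAS the share was 18.6, 18.1, 18.8 and 18.9% in siControl (18.6% ± 0.336, SD, n = 4) and 16.4, 15.9, 16.2 and 16% in siITGA7 (16.1% ± 0.231, SD, n = 4). Every SAS siITGA7 library lay below every SAS siControl library, by 2.49 percentage points on average. In Cal33 the share was 27.7, 28.1, 23.6 and 25.6% in siControl (26.3% ± 2.1, SD, n = 4) and 23.4, 23.6, 23.8 and 24.6% in siITGA7 (23.9% ± 0.543, SD, n = 4). The 2 highest Cal33 values were the siControl libraries with 2 sequencing runs, siControl replicate 3 lay among the siITGA7 libraries, and the groups overlapped. The Cal33 means differed by -2.42 points over all libraries and by -1.01 points over the libraries with 1 run (24.6%, n = 2, against 23.6%, n = 3), and by -3.31 points over those with 2 runs (27.9%, n = 2, against 24.6%, n = 1). No test was made of these summed values. The share is relative to all peak counts, so it also falls where other peaks gain counts. Outside promoters, 5.07% of tested SAS peaks were higher and 1.32% lower past the test's threshold, and 5.19 and 3.4% in Cal33. Their part in the smaller share was not tested. In bulk libraries, a smaller share of cells with an open site and a smaller opening per cell cannot be told apart either.

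**Figure D1:**
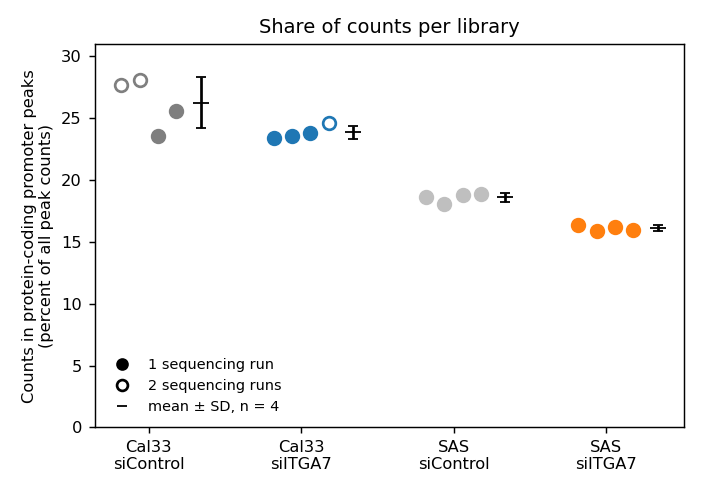
Percent of all peak counts in the 8181 promoter peaks, 1 point per library and group on the horizontal axis, with the mean ± SD of 4 libraries. SAS siITGA7 lies at 15.9 to 16.4% below SAS siControl at 18.1 to 18.9%, whereas Cal33 siControl spreads from 23.6 to 28.1% and overlaps siITGA7 at 23.4 to 24.6%.

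Level rose with width in every group. The members were divided by width into 4 classes of equal size before the filter. On a scale common to the 16 libraries, the median log2 CPM of the narrowest class was 1.59 ± 0.07 in Cal33 siControl (SD over 4 libraries), and it was 4.52 ± 0.15, 5.26 ± 0.20 and 5.80 ± 0.21 in the wider classes. In SAS siControl the same medians were 2.15 ± 0.02, 3.84 ± 0.04, 4.37 ± 0.06 and 4.86 ± 0.07, so SAS was higher in the narrowest class and Cal33 in the wider ones, on a scale that other scalings shift between the lines (given with the baseline comparison). After siITGA7 the SAS medians of the 3 wider classes were lower, at 3.52 ± 0.03, 4.07 ± 0.03 and 4.60 ± 0.05, with no overlap of libraries, while that of the narrowest class was higher at 2.22 ± 0.02. In Cal33 siITGA7 the medians on the common scale were 1.52 ± 0.05, 4.34 ± 0.04, 5.09 ± 0.05 and 5.71 ± 0.04, and overlapped siControl in every class. Across members, width and mean level had a Spearman correlation of 0.53 in Cal33 (n = 6944) and 0.49 in SAS (n = 6367). A wide peak collects more counts for its length alone, and all points share the same libraries.

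**Figure D2:**
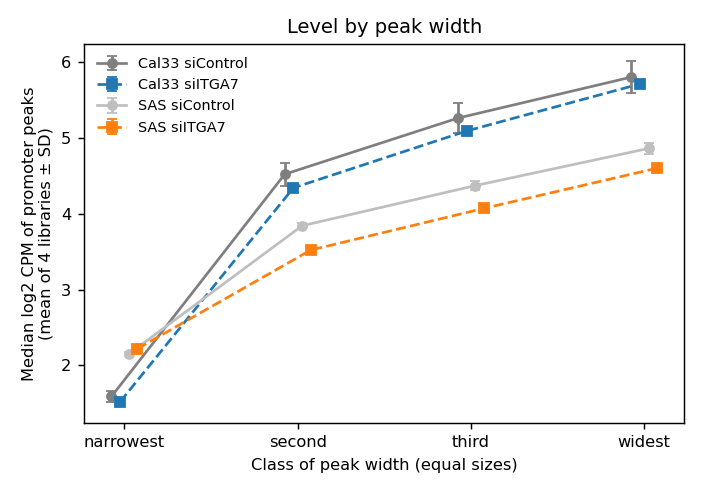
Median log2 CPM of promoter peaks in each class of peak width, on the scale common to 16 libraries, as the mean of 4 libraries ± SD per group. The level climbs with width in all groups, from 1.59 to 5.80 in Cal33 siControl and from 2.15 to 4.86 in SAS siControl.

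None of the 5 widest members was called in either line. CDK6, a kinase that drives entry into S phase, had the widest peak (chr7:92831806-92837188, 5383 bp). Its log2 CPM was 6.16, 6.12, 5.81 and 5.94 in Cal33 siControl and 6.08, 6.17, 6.20 and 6.29 in siITGA7. In SAS it was 7.06, 6.95, 6.87 and 6.87 in siControl and 7.18, 6.95, 7.19 and 7.01 in siITGA7. The groups overlapped in both lines, and the changes of 0.18 ± 0.12 (SE, adjusted p = 0.38) and 0.13 ± 0.10 (adjusted p = 0.448) did not pass the test. The next widest, BRD2 (5258 bp), a bromodomain reader of acetylated histones, KIAA0753 (4698 bp), a centriole protein, and QKI (4521 bp), an RNA-binding protein, changed by between -0.11 and 0.03 in the 2 lines, with no call. The narrowest member, RGS11 (159 bp), had at most 7 counts in any library and was not tested. Per kb of peak the highest Cal33 members were NDUFA11, a subunit of respiratory complex I, at 8.44 log2 CPM per kb, MBOAT7, an acyltransferase of phosphatidylinositol, at 8.43, and TMEM141 at 8.35, and the highest SAS member was BHLHE41, a transcriptional repressor of the circadian clock, at 6.85. FAM86B1 and FAM86B2, also high in Cal33, are near-identical copies whose counts may be shared.

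Calls ran downward in both lines. Over all tested peaks and both directions, 9.19% were called in Cal33 and 7.03% in SAS. In Cal33, 848 of 6944 members were called lower (12.2%, against a background of 4.67% over all tested peaks) and 47 higher (0.677% against 4.52%), and the median log2 change was -0.16 against -0.01 over all peaks. In SAS, 568 of 6367 were called lower (8.92% against 2.99%) and 34 higher (0.534% against 4.04%), with a median of -0.17 against 0.01. The changes were small: the median called fall was -0.48 in Cal33 and -0.54 in SAS, and 10 and 23 called members changed by at least 2-fold. Groups did not overlap, with siITGA7 lower, in 849 Cal33 members (12.2%, background 6.16%) and 893 SAS members (14%, background 5.61%). They did not overlap, with siITGA7 higher, in 167 Cal33 members (background 8.39%) and 84 SAS members (background 5.99%). Peaks outside promoters were called lower in 3.4% of cases in Cal33 and 1.32% in SAS, and protein-coding promoters beyond 1000 bp in 9.01% and 5.83%. At the edge of the rule, 11 of 129 tested Cal33 members at 900 to 1000 bp and 12 of 85 peaks over 1000 and up to 1100 bp were called lower, and in SAS 9 of 118 and 9 of 74.

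The Cal33 count depended on which libraries entered. With the 5 Cal33 libraries of 1 run alone, a smaller set, 128 members were called lower (1.82%, background 2.01%) and 49 higher (0.695%, background 2.13%). The median was then -0.04. Lower calls numbered 292 without siControl replicate 1 (4.17%, background 2.42%), 409 without siControl replicate 2 (5.82%, background 2.99%) and 2268 without siControl replicate 3 (32.4%, background 8.17%). They numbered 470, 315 and 345 without siITGA7 replicates 1, 2 and 3 (6.73, 4.5 and 4.93%, backgrounds 3.29, 1.97 and 1.94%). Higher calls, 47 in all, fell to 28 and 27 without siControl replicates 1 and 4 (backgrounds 2.38 and 3.41%). They fell to 11, 16 and 18 without siITGA7 replicates 2, 3 and 4 (backgrounds 2.15, 2.07 and 3.27%). Pairing the Cal33 libraries by replicate left 596 lower (8.58%, background 3.49%) and 29 higher (background 3.73%). The SAS counts were 288 lower (4.51%, background 1.61%) and 22 higher (background 2.86%) without siITGA7 replicate 4, and 19 higher (background 2.68%) without siITGA7 replicate 2. With DESeq2 125 were lower (1.96%, background 0.601%) and 11 higher (background 1.78%). When libraries were thinned to the smallest, 87 were lower (1.86%, background 0.91%) and 9 higher (background 2.08%). Both directions depend on the scaling, since factors from the promoter peaks alone set their median change to 0. In Cal33 439 members were then lower (6.32%, background 1.57%) and 271 higher (3.9%, background 6.86%). In SAS 141 were lower (2.21%, background 0.736%) and 192 higher (3.02%, background 10.5%). The median of all peaks moved to 0.14 and 0.18. The changes are therefore given relative to the other peaks. The member median minus that of all peaks ran from -0.26 to -0.10 over the Cal33 settings other than the 1-run libraries (-0.03) and from -0.27 to -0.09 over the SAS settings.

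In Cal33 the share called lower was highest in the middle classes of width, and in SAS it was lowest in the narrowest class. By width, from narrowest to widest class, 8.15, 17.5, 14.7 and 6.4% of tested Cal33 members were called lower, and 2.34, 7.81, 10.1 and 10.6% in SAS. These shares moved with the libraries: the Cal33 shares were 2.48, 3.69, 1.18 and 0.295% in the 1-run libraries, and that of the widest class was 31.4% without siControl replicate 3 and between 1.23 and 4.48% without any other library. In SAS the widest class was below the one before it with loess offsets (6.15 against 7.44%), with the replicate block (8.28 against 8.66%) and at a mean of at least 50 counts (7.82 against 10.2%). By mean level, from lowest to highest class, the shares were 3.05, 8.99, 16.5 and 20.3% in Cal33 and 3.33, 5.59, 10.7 and 16% in SAS. In the highest class of level in Cal33, 98 of 234 members of the second width class were called lower (41.9%), 161 of 559 of the third (28.8%) and 89 of 935 of the widest (9.52%). In SAS the same cells gave 15.6, 16.1 and 16%. Protein-coding promoters beyond 1000 bp gave 47.7, 28.1 and 7.07% in Cal33 and 12.6, 17.3 and 14.9% in SAS. Peaks outside promoters gave 19.3, 8.98 and 2.58% in Cal33, so the decline with width at high level was not particular to the members. Level sets the power of the test, and its part in these shares was not tested. Members centred within 250 bp of the start were called lower in 13.8% of cases in Cal33 and 9.33% in SAS, against 10.1 and 7.88% of those further upstream and 8.27 and 8.89% of those further downstream.

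**Figure D3:**
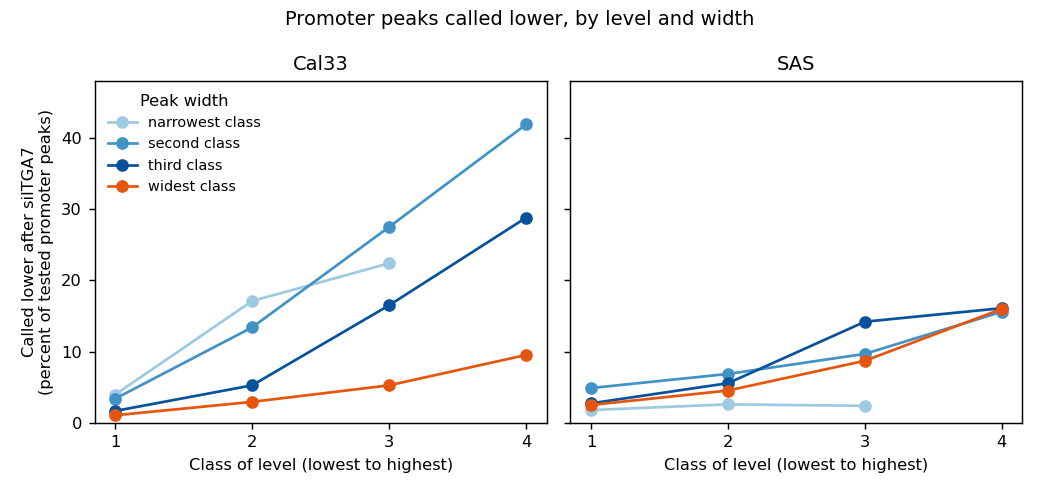
Percent of tested promoter peaks called lower after siITGA7 against the class of mean level, 1 line per class of peak width, with cells of fewer than 20 peaks left out. In Cal33 the second width class reaches 41.9% at the highest level and the widest 9.52%, whereas in SAS the 3 wider classes end between 15.6 and 16.1%.

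In Cal33, members with a CCAAT box were called lower more often than those without, and in SAS the shares were close. Of 1983 tested Cal33 members with a box in the window, 436 (22%) were called lower, against 257 of 3279 without (7.84%), with median log2 changes of -0.24 and -0.13. In SAS the shares were 10.1% of 1907 and 9.27% of 3076, with both medians at -0.19. Put the other way, 62.9% of Cal33 members called lower held a box, against 37.7% of those tested and 34.7% of all 22199 windows. The Cal33 share rose with the number of boxes, from 7.84% with none to 15% with 1, 27.3% with 2 and 40.5% with 3 or more (n = 309), and in SAS it was 9.27, 9.42, 13.2 and 7.89%. A box 40 to 120 bases before the start went with 25.7% called lower in Cal33, and boxes elsewhere in the window alone with 16.2%. Windows with several boxes enter the first of these classes more readily, so position was not separated from number. The higher share with a box held in each class of width and of level in Cal33. It was 29.4 against 10.9% in the second width class, 28.9 against 12.7% at the highest level and 4.71 against 3.17% at the lowest. It did not hold in every cell of width and level together. At the lowest level, 0 of 45 against 3 of 149 were called lower in the third width class, and 0 of 35 against 2 of 85 in the widest. Without siControl replicates 1, 2 and 3 the Cal33 shares with and without a box were 7.99 and 2.12%, 11.3 and 3.09%, and 47.6 and 27.5%. Without siITGA7 replicates 1, 2 and 3 they were 12.2 and 3.62%, 8.89 and 2.15%, and 9.59 and 2.58%. Other motifs also divided the Cal33 calls, with 14.2% lower with a GC box against 10.2% without and 7.03 against 13.5% for AP-1. For NRF1 it was 5.26% (7 of 133) against 13.4%. In SAS the GC box and AP-1 went the same way (10.4 against 7.18% and 5.31 against 9.8%). NRF1 went the other way there (14.6 against 9.46%). The CCAAT box was singled out after results had been seen, so its counts are a description.

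The same split was also seen per library, from the same counts that gave the calls. The box was singled out after results had been seen, so the separation of groups below is a description and no independent support. The median log2 CPM of members with a box exceeded that of members without by 0.55, 0.59, 0.52 and 0.54 in Cal33 siControl and by 0.42, 0.44, 0.43 and 0.42 in Cal33 siITGA7. All 4 siControl libraries lay above all 4 siITGA7 libraries, also among the libraries with 1 run. In SAS the excess was 0.23, 0.24, 0.26 and 0.24 in siControl and 0.27, 0.24, 0.22 and 0.26 in siITGA7, with overlap. In the 5 Cal33 libraries of 1 run, 2.9% of members with a box and 0.97% of those without were called lower. Windows could be set for 75.8% of tested Cal33 members and 78.3% of SAS members, under the 80% needed for a check over all of them. A wider match outside chromosome 8 covered 80.9 and 83.2% and gave 21.9 against 7.8% in Cal33 and 10.2 against 9.22% in SAS. Protein-coding promoters beyond 1000 bp, with a window for 50.1%, gave 19.8 against 7.11% in Cal33. The part of window coverage in these shares was not tested.

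**Figure D4:**
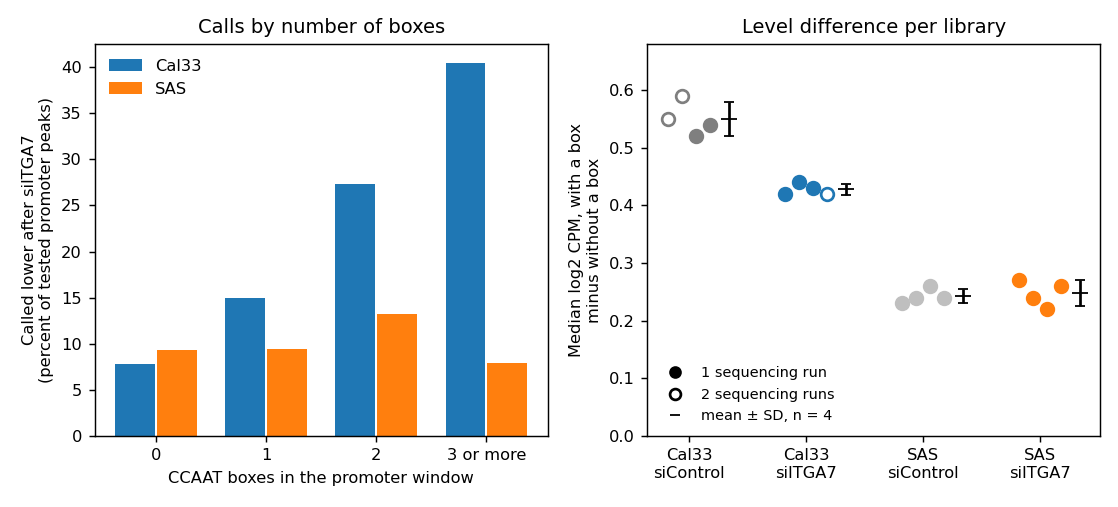
Left, percent of tested promoter peaks called lower after siITGA7 by number of CCAAT boxes in the window, as bars per line. Right, the median log2 CPM of peaks with a box minus that of peaks without, 1 point per library with the mean ± SD of 4: Cal33 siITGA7 at 0.42 to 0.44 lies below Cal33 siControl at 0.52 to 0.59, and the SAS groups overlap.

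Among members with non-overlapping groups and a level no lower than the median, the largest called Cal33 falls were in DOLPP1, DET1, SIVA1, ELK1, TK1, PIMREG, SPATC1L and ATF6B, between -0.85 and -0.77. DOLPP1, a phosphatase that recycles the lipid carrier of N-glycosylation (ENSG00000167130, peak chr9:129080399-129081659), had 6.81, 7.0, 6.11 and 6.41 log2 CPM in siControl and 5.76, 5.79, 5.66 and 5.85 in siITGA7. All siITGA7 libraries lay below all siControl libraries, and the 2 highest siControl values were those with 2 runs. Its change was -0.85 ± 0.14 (SE, adjusted p = 0.000312), and in SAS it was -0.30 ± 0.11 (adjusted p = 0.0873). The stretch printed above holds 3 boxes.

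TK1, the thymidine kinase of the nucleotide salvage pathway (ENSG00000167900, peak chr17:78186474-78187596), had 6.71, 6.74, 6.01 and 6.28 log2 CPM in Cal33 siControl and 5.63, 5.67, 5.69 and 5.64 in siITGA7. The siITGA7 libraries were almost level with each other and below every siControl library, for a change of -0.80 ± 0.14 (SE, adjusted p = 0.00032). In SAS its libraries overlapped and the change was -0.07 ± 0.13 (adjusted p = 0.815). ELK1, an ETS factor of the growth factor response (ENSG00000126767, peak chrX:47650150-47651329), had 6.26, 6.24, 5.55 and 5.90 in Cal33 siControl and 5.05, 5.20, 5.20 and 5.33 in siITGA7, again without overlap. It changed by -0.81 ± 0.13 (SE, adjusted p = 0.000236) in Cal33 and by -0.11 ± 0.18 (adjusted p = 0.786) in SAS. DET1, part of a ubiquitin ligase complex, changed by -0.82 ± 0.12 and ATF6B, a factor of the endoplasmic reticulum stress response, by -0.77 ± 0.12. Over the 1-run libraries DOLPP1 changed by -0.52 ± 0.14, TK1 by -0.48 ± 0.14, ELK1 by -0.58 ± 0.14 and DET1 by -0.68 ± 0.13, and 7 of the 8 named falls still passed. SIVA1, a proapoptotic protein, did not.

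Under the same limits the Cal33 rises were smaller. CYSRT1, which encodes a cysteine-rich tail protein (ENSG00000197191, peak chr9:137224816-137225265, 450 bp), had 5.15, 5.04, 5.01 and 5.27 log2 CPM in siControl and 5.73, 5.78, 5.95 and 5.86 in siITGA7. Every siITGA7 library lay above every siControl library, and the change was 0.71 ± 0.12 (SE, adjusted p = 0.000223). It was 0.69 ± 0.14 in the 1-run libraries and 0.16 ± 0.16 (adjusted p = 0.611) in SAS. RAB11FIP3, an effector of recycling endosomes, ZBTB38, a zinc finger protein that binds methylated DNA, C1QTNF6, GNAL, PRR7, IKBKE, a kinase of innate immune signalling, and NACA, a ribosome-associated chaperone, rose by between 0.42 and 0.46. Of the 8 named rises, 3 passed in the 1-run libraries. Of the 47 called rises in Cal33, 27 had a window. An AP-1 site (TGANTCA) stood in 7 of these 27 (25.9%), against 4.87% of tested members and 6.15% of all windows. In SAS it stood in 2 of 14 called rises with a window (14.3%), against 4.54% of tested members. This motif was picked from those searched, so these small counts are a description.

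In SAS, again among members with non-overlapping groups and a level no lower than the median, the largest of 4 called rises was in OAZ1, the antizyme that limits polyamine synthesis (ENSG00000104904, peak chr19:2269089-2271939). It had 6.23, 6.25, 6.07 and 6.04 log2 CPM in siControl and 7.14, 6.95, 6.89 and 7.10 in siITGA7. The groups were far apart for these data, with a change of 0.90 ± 0.10 (SE, adjusted p = 5.36e-12). In Cal33 the same peak had 6.06, 6.28, 5.52 and 5.92 in siControl and 5.45, 5.43, 5.43 and 5.62 in siITGA7, which overlapped through siControl replicate 3. The Cal33 change of -0.47 ± 0.13 (adjusted p = 0.0187) was -0.29 ± 0.14, past no threshold, in the 1-run libraries. ANXA9, an annexin, changed by 0.65 ± 0.17 (adjusted p = 0.00757) in SAS, and FLOT1, a scaffold of membrane rafts, by 0.32 ± 0.10 (adjusted p = 0.0392).

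Under the same limits the largest SAS falls with a gene name were in DPH3, DPY19L1, NEK2, PSAT1, DUSP22 and ZHX3, between -0.81 and -0.74. DPH3, which acts in diphthamide synthesis on elongation factor 2 (ENSG00000154813, peak chr3:16264396-16265529), had 5.37, 5.42, 5.48 and 5.68 log2 CPM in SAS siControl and 4.95, 4.44, 4.96 and 4.61 in siITGA7. These did not overlap, and the change was -0.81 ± 0.16 (SE, adjusted p = 0.000156). Its Cal33 change was -0.46 ± 0.13 (adjusted p = 0.0227) with overlap, and -0.26 ± 0.13, past no threshold, in the 1-run libraries. NEK2, a kinase of centrosome separation (ENSG00000117650, peak chr1:211675101-211676170), had 5.38, 4.96, 5.20 and 5.53 in SAS siControl and 4.47, 4.56, 4.15 and 4.84 in siITGA7. In Cal33 it had 5.31, 5.10, 5.37 and 5.45 in siControl and 4.81, 4.54, 4.82 and 4.89 in siITGA7. NEK2 fell without overlap in both lines, with changes of -0.76 ± 0.17 (SE, adjusted p = 0.00113) in SAS and -0.55 ± 0.12 (adjusted p = 0.00279) in Cal33, and of -0.67 ± 0.13 in the 1-run Cal33 libraries. PSAT1, an enzyme of serine synthesis, changed by -0.76 ± 0.16 in SAS and by -0.18 ± 0.12 (adjusted p = 0.344) in Cal33.

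**Figure D5:**
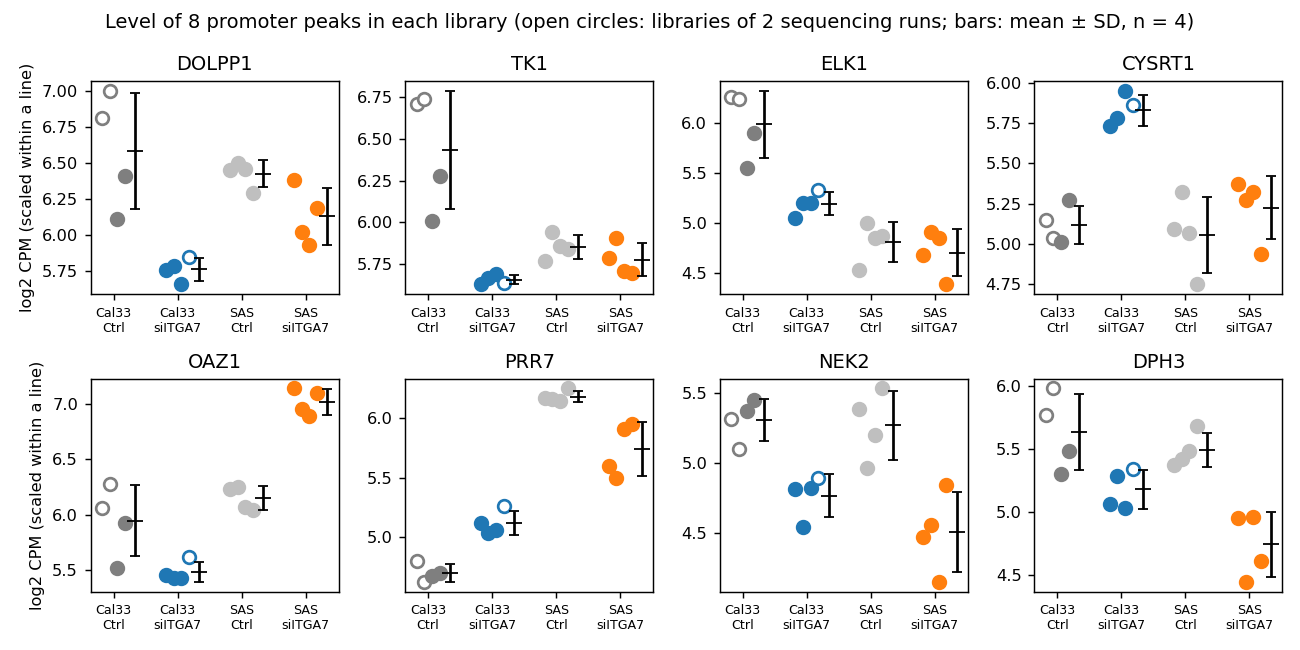
log2 CPM of 8 promoter peaks in each library, scaled within a line, with the mean ± SD of 4 libraries and open circles for libraries of 2 sequencing runs. DOLPP1, TK1 and ELK1 pass the test as lower in Cal33, NEK2 in both lines, and OAZ1 rises in SAS from 6.04 to 6.25 up to 6.89 to 7.14.

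The lines shared few calls. Of 6205 members tested in both, 108 were called lower in both, which is 13.3% of 814 Cal33 calls and 19.1% of 564 SAS calls, where 9.09% of all 6205 were called lower in SAS and 13.1% in Cal33. Called higher in both was 1 member, and 5 were called in opposite directions. The log2 changes of the lines had a Pearson correlation of 0.11 over these members, and the mean levels one of 0.80, both as descriptions over promoters counted in a shared peak set. A CCAAT box stood in 64% of 86 members lower in both lines with a window, in 63.5% of those lower in Cal33 alone and in 35.3% of those lower in SAS alone, beside 34% of those lower in neither.

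The test of the difference itself, the SAS change minus the Cal33 change in a fit of all 16 libraries, called 0.761% of all peaks in either direction. Among members it called 40 of 7445 members lower (0.537%, background 0.491%) and 15 higher (0.201%, background 0.27%). OAZ1 had the smallest p, with a difference of 1.26 ± 0.18 (SE, adjusted p = 1.6e-06). PRR7, a proline-rich membrane protein, had 4.80, 4.62, 4.67 and 4.70 log2 CPM in Cal33 siControl and 5.12, 5.03, 5.06 and 5.26 in siITGA7, but 6.17, 6.16, 6.14 and 6.25 in SAS siControl and 5.60, 5.50, 5.91 and 5.95 in siITGA7. It rose in Cal33 and fell in SAS with no overlap in either, for a difference of -0.94 ± 0.18 (SE, adjusted p = 0.00201). The Cal33 rise was 0.40 ± 0.13, past no threshold, in the 1-run libraries. DGKD, a diacylglycerol kinase, differed by -1.44 ± 0.30 (adjusted p = 0.00383) and MARCHF4, a membrane ubiquitin ligase, by -0.98 ± 0.20 (adjusted p = 0.00399). DGKD held only 3, 8, 6 and 15 counts in SAS siITGA7. MARCHF4 changed by 0.61 ± 0.15 in Cal33, and by 0.36 ± 0.14, past no threshold, in the 1-run libraries. An unnamed member at chr11:67674232-67675121 differed by 1.26 ± 0.26 and another at chr6:152380481-152381796 by -1.46 ± 0.31. In SAS siITGA7 they held 9, 25, 17 and 31 counts, and 7, 15, 4 and 20 counts. Pairing by replicate left 21 members lower (0.282%, background 0.352%) and 10 higher (0.134%, background 0.203%). The lower count was 64, 96 and 66 without Cal33 siControl replicates 1, 2 and 3 (0.857, 1.25 and 0.884%, backgrounds 0.516, 0.623 and 0.923%). It was 22 and 17 without SAS siControl replicates 3 and 4 (backgrounds 0.315 and 0.295%) and 23 without Cal33 siITGA7 replicate 4 (background 0.369%). Without SAS siITGA7 replicates 1 and 4 it was 21 and 18 (backgrounds 0.328 and 0.28%). The higher count was 101 without Cal33 siControl replicate 3 (1.35%, background 0.629%) and between 5 and 13 without any other library.

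Between the lines at siControl, 78.2% of all peaks were called in either direction. Among members, 4849 of 7445 members were higher in Cal33 (65.1%, background 36%) and 1354 lower (18.2%, background 42.2%), with a median of 0.72 against -0.22 over all peaks. With total counts as library size, 3076 were higher (41.3%, background 22.9%) and 2523 lower (33.9%, background 56.5%). With factors from the promoter peaks alone 2688 were higher (36.1%, background 20.2%) and 2866 lower (38.5%, background 58.8%). These scalings moved the median of all peaks to -0.85 and -0.96, so under them the direction held only relative to other peaks. Among peaks of at least 50 counts on average it did not hold relative to other peaks either. There 1897 members were higher (35.4%, background 37.5%) and 1926 lower (36%, background 37.6%), with a median of -0.01 beside 0.00 over all such peaks. PLTP, a phospholipid transfer protein, had 6.36 to 6.96 log2 CPM in Cal33 siControl and 3.41 to 3.61 in SAS siControl, each scaled within its line. It was higher in Cal33 by 4.22 ± 0.16 (SE, adjusted p = 1.97e-49), and TGM1, the transglutaminase of the cornified envelope, by 3.63 ± 0.16 (adjusted p = 2.93e-43). These genes and those that follow had the largest baseline differences among called members with a level no lower than the median. RASSF8 was higher in SAS, with a Cal33 minus SAS difference of -3.71 ± 0.14 (adjusted p = 7.12e-49). SINHCAF, a subunit of the Sin3 deacetylase complex, ALG10, a glucosyltransferase of N-glycosylation, DNAI7 and BHLHE41 followed, between -3.35 and -2.72. All 5 of these lie on chromosome 12, from 25194775 to 34023144, and the part of copy number was not tested.

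Gene groups were matched by symbol, and their counts are to be read against the 12.2% of members called lower in Cal33 and 8.92% in SAS. None is called particular here. The Cal33 medians lay below 0 except for integrins, laminins and inflammatory genes, and the SAS medians except for keratinocyte, interferon and neuronal genes. Among cell cycle genes, 6 of 20 tested members of replication and mitosis were called lower in Cal33 and none in SAS, with medians of -0.29 and -0.12. CDC20, an activator of the anaphase-promoting complex, changed by -0.57 ± 0.13 (SE, adjusted p = 0.00374), CDC25C, a phosphatase of mitotic entry, by -0.54 ± 0.12, and MCM3, a subunit of the replicative helicase, by -0.48 ± 0.11. In SAS these 3 changed by -0.10 ± 0.12, -0.08 ± 0.13 and -0.01 ± 0.16. DNA damage response and repair had 2 of 17 called lower in Cal33, MDC1 and BRCA1 at -0.59 and -0.52, and 3 of 17 in SAS, CHEK1, XRCC4 and MRE11 between -0.66 and -0.52. BRCA1, which acts in homologous recombination, changed by -0.01 ± 0.14 in SAS, and the checkpoint kinase CHEK1 by -0.10 ± 0.12 in Cal33.

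Ribosomal protein genes had 7 of 45 called lower in Cal33 and none in SAS, with medians of -0.12 and -0.05. Mitochondrial respiration had 3 of 29 lower in Cal33, ATP5F1B, COX5B and NDUFV2, and 1 of 28 in SAS, COX7C at -0.86 ± 0.25 (SE, adjusted p = 0.0174). Hypoxia and glycolysis had 3 of 19 lower in Cal33, the glycolytic enzyme ALDOA, ANKRD37 and the mitophagy receptor BNIP3, and 1 of 17 in SAS, the oxygen sensor EGLN1, with medians of -0.28 and -0.23. Constitutive gene controls had 3 of 9 lower in Cal33, PPIB and GPI among them, and none of 10 in SAS. Chromatin regulators had 3 of 30 lower in each line, the deacetylases HDAC4 and HDAC6 and SETD5 in Cal33, and SMC1A, EED and HDAC2 in SAS. Over the 1-run Cal33 libraries CDC25C, MCM3, ATP5F1B and COX5B passed and the other Cal33 members just named did not.

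Among adhesion and squamous identity genes, none of 7 tested integrin members in Cal33 and 6 in SAS was called, with medians of 0.02 and -0.09, and none of 14 YAP and TEAD targets in either line. Focal adhesion had no call among 9 in Cal33 and 1 among 9 in SAS, FERMT1, the kindlin that activates integrins in epithelium, at -0.42 ± 0.13 (SE, adjusted p = 0.0262). Laminins and basement membrane had 1 of 7 lower in Cal33, DAG1, the laminin-binding dystroglycan, at -0.49 ± 0.13 (adjusted p = 0.0165) and -0.26 ± 0.15 in the 1-run libraries, and none of 7 in SAS. Keratinocyte differentiation and basal identity had GRHL1, an epithelial transcription factor, lower and the desmosomal cadherin DSC2 higher among 13 in Cal33, and no call among 10 in SAS. Mesenchymal drivers had COL5A1 lower among 9 in Cal33 and no call among 10 in SAS.

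Among signalling and stress groups, inflammatory and NF-kB genes had 1 of 14 lower in Cal33, RELA, and 1 of 15 in SAS, PTGS2. AP-1 and immediate early genes had ATF2 lower in both lines, by -0.40 ± 0.13 in Cal33 and -0.40 ± 0.12 in SAS, and FOSL2 in SAS, out of 16 and 15. Interferon response had 1 of 11 lower in Cal33 and none of 8 in SAS. Neuronal genes had SYP lower among 4 in Cal33 and GRIN2B higher among 4 in SAS. Of 33 fibroblast, endothelial and blood cell markers only CD68 and HBA1 had a member. CD68, a lysosomal protein of macrophages, was open at 54.6 to 68.4 CPM in Cal33 siControl and 38.8 to 46.7 CPM in siITGA7, and changed by -0.59 ± 0.12 (SE, adjusted p = 0.0026), with an adjusted p of 0.039 for the difference between lines (0.69 ± 0.18), while HBA1 stayed at or under 6.6 CPM in every library. The part of such cells in the other results was not tested. Over the 1-run Cal33 libraries GRHL1, DSC2, COL5A1, RELA, ATF2, SYP and CD68 did not pass.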

How the data were processed

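ATAC-seq was measured in 16 libraries. Per the file headers, the authors deposited raw counts for 164980 peaks shared by all libraries, and each fit used these counts as they stand. A deposited normalized signal equals those counts over a constant for each library and entered no fit. Per the submitters' processing notes, bcl2fastq 2.20.0 was used with the build hg38, also named GRCh38. No source used here names the aligner, peak caller, counter or read shift, or says how duplicates were treated, so a count may not be an independent molecule. The deposited annotation gives class, Ensembl identifier and distance to the nearest start, and 266 peaks had none.

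All tested peaks of a line were fitted with edgeR 4.0.16 (R 4.3.3; filterByExpr, TMM, robust quasi-likelihood F-test), with Benjamini-Hochberg adjustment over all tested peaks, and a peak was called at an adjusted p under 0.05. Interaction and baseline contrasts were taken from 1 fit of the 16 libraries. Log2 CPM used a prior count of 2. The steps were tested on simulated data. DESeq2 1.42.0, other scalings (limma 3.58.1 for loess offsets), filters, thinning, a replicate block and leaving out libraries were the alternatives.

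Symbols came from RefSeq (GRCh38.p14) through the position of each start, which named 6370 of 8181 members (77.9%). Promoter windows, from RefSeq, were searched on both strands, except TATAAA (gene strand), for the CCAAT box (CCAAT), the GC box (GGGCGG), the ETS motif (CCGGAAG), the E-box (CACGTG), the CRE (TGACGTCA), the AP-1 site (TGANTCA), the TEAD motif (GGAATG), the CHR (TTTGAA), and the YY1 and NRF1 motifs. A window could hold several motifs. No window from chromosome 8 was used.

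A symbol therefore rests on position, not on the deposited identifier. Named genes were the ITGA7 member, and per line the 8 largest called rises and falls with non-overlapping groups and a level no lower than the members' median. The 6 smallest interaction p values, the 5 largest baseline differences each way among called members of at least median level, the 5 widest, the 5 narrowest and the 5 highest per kb in each line were added, with up to 3 called members per list and line, 1 peak per gene. The members, the 18 lists and the tests were chosen with earlier results of these data known. The labels name a batch for each replicate number, which was read as a possible pairing of same-numbered libraries. Their deviations from the group means over members correlated by only -0.15 to -0.01 in Cal33 and -0.06 to 0.01 in SAS. The main fits were unpaired, and pairing entered only in the replicate block.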

Additional observations from a re-analysis of the deposited data

Results flagged for a closer look

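The 91 named members tested in at least 1 line gave 362 groups with a value in each library, and the share of counts and the CCAAT difference gave 8 more. A library stood far from the other 3 in 19 of these 370 groups (5.14%), where chance alone gives about 1 in 20. In SAS siITGA7, RAB11FIP3 in replicate 3 had 3.96 log2 CPM against 4.69 to 4.77, C1QTNF6 in replicate 4 had 6.38 against 6.46 to 6.47, DPY19L1 in replicate 2 had 4.67 against 5.32 to 5.37, FERMT1 in replicate 1 had 5.37 against 5.72 to 5.74, and ANKRD37 in replicate 3 had 5.91 against 5.42 to 5.44. The unnamed member at chr6:152380481-152381796 had 2.47 in SAS siITGA7 replicate 3 against 3.74 to 3.93. In SAS siControl, MARCHF4 had 6.10 in replicate 4 against 5.97 to 5.99, and the unnamed member at chr6:26249114-26253449 had 4.58 in replicate 2 against 5.37 to 5.41. CDC25C had 5.97 in SAS siControl replicate 1 against 5.73 to 5.76. In Cal33 siControl, replicate 3 stood low for C1QTNF6 at 6.48 against 6.79 to 6.84, for BRD2 at 8.0 against 8.43 to 8.44, for EGLN1 at 5.03 against 5.43 to 5.47 and for CD68 at 5.74 against 6.16 to 6.18. In Cal33 siITGA7, replicate 1 stood low for SPATC1L at 4.39 against 4.64 to 4.67 and for the unnamed member at chr2:263809-265353 at 6.49 against 6.78 to 6.80, as well as for TMEM141 at 7.89 against 8.16 to 8.18 and ATF2 at 6.69 against 6.84 to 6.87. Replicate 4 of the same group stood high for OAZ1 at 5.62 against 5.43 to 5.45 and for DUSP22 at 5.93 against 5.81 to 5.82.

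The SAS change differed from the Cal33 change, by the interaction contrast of edgeR over all peaks, in 9 named members. OAZ1 differed by 1.26 (adjusted p = 1.6e-06), FLOT1 by 0.66 (adjusted p = 0.0442), CD68 by 0.69 (adjusted p = 0.039) and the unnamed member at chr11:67674232-67675121 by 1.26 (adjusted p = 0.00372). PRR7 differed by -0.94 (adjusted p = 0.00201), DGKD by -1.44 (adjusted p = 0.00383), MARCHF4 by -0.98 (adjusted p = 0.00399), DUSP22 by -0.81 (adjusted p = 0.0499) and the unnamed member at chr6:152380481-152381796 by -1.46 (adjusted p = 0.0044).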

How the results depend on the processing

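No called value of a named member changed sign under an alternative. Of 2329 values of single members under alternatives 50 did, in 16 cases that were not called, such as ZHX3, DUSP22 and ITGA7 in Cal33, with a size of at most 0.35. In Cal33, 1020 of 1186 values of single members kept their side of the threshold, 158 lost the call and 8 gained one. In SAS 720 of 847 kept it, 120 lost it and 7 gained it, for the difference between lines 138 of 139 kept it, and at baseline all 157 did. The cause of the shifts in counts below was not tested.

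Leaving out 1 library moved Cal33 lower calls between 292 and 2268 and higher calls between 11 and 63, and SAS calls between 288 and 726 and between 19 and 39. The share of members called lower stayed above that over all tested peaks in every setting of both lines, except in the 1-run Cal33 libraries (1.82 against 2.01%). The share called higher stayed below that over all tested peaks in every setting of both lines. Leaving out 1 library also moved the other results. It moved the difference between lines from 17 to 96 lower and 5 to 101 higher, and the baseline from 1216 to 1349 lower and 4748 to 5061 higher. The baseline shares were then 16.3 to 18% lower (backgrounds 39.8 to 40.7%) and 63.6 to 67.8% higher (backgrounds 33.2 to 35.1%). The share of counts in members moved from -3.31 to -1.79 points in Cal33 and from -2.64 to -2.39 in SAS.

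Cal33 higher calls numbered 31 within 500 bp of the start, 160 with total counts, 252 with loess offsets, 24 with DESeq2, and 132 at a mean of at least 50 counts. Factors from the promoter peaks alone gave 439 lower and 271 higher, and the libraries of 1 run 128 lower. Lower calls made up 94.7% of Cal33 calls, but 84% with total counts, 61.8% with promoter factors and 81.2% with loess offsets. In SAS they made up 94.4%, and 42.3% with promoter factors (141 lower, 192 higher). SAS gave 125 lower and 11 higher with DESeq2, 1648 lower with no filter, 278 lower at a mean of at least 50 counts, and 87 lower and 9 higher after thinning. SAS higher calls numbered 22 within 500 bp and 22 in the fit of 16 libraries, and the SAS share within 500 bp fell by 2.12 points.

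The difference between lines gave 13 lower with RLE factors (0.175%, background 0.247%). With total counts it gave 107 lower and 35 higher (1.44 and 0.47%, backgrounds 0.721 and 0.348%). Promoter factors gave 16 and 71 (0.215 and 0.954%, backgrounds 0.209 and 0.425%), and DESeq2 15 lower (0.201%, background 0.206%). With no filter 157 were lower and 8 higher (1.92 and 0.0978%, backgrounds 0.743 and 0.13%). At a mean of at least 50 counts 111 were higher (2.07%, background 2.17%). Lower calls were 72.7% of the calls on this difference in the main fit, 44.8% with RLE and 18.4% with promoter factors. At baseline total counts gave 2523 lower and 3076 higher, promoter factors 2866 and 2688, and a mean of at least 50 counts 1897 higher. The lower share of baseline calls went from 21.8% to 45.1 and 51.6%.

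With the replicate block, Cal33 gave 596 lower and 29 higher, SAS 460 and 27, and the difference between lines 21 and 10. The baseline then gave 1350 and 4827 (18.1 and 64.8%, backgrounds 42 and 35.7%).

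The excess of Cal33 lower calls with a CCAAT box was examined after the data were seen, as was the wider window match. The median change with a box minus that without ran from -0.11 to -0.08 in Cal33 and from -0.00 to 0.02 in SAS over the settings run.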
